A study of Mus musculus with 3 samples.

Results

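Among single non-parenchymal cells of mouse liver, 65 cells met a transcript rule for basophils, of 42971 cells kept from 2 libraries and 52335 cells in all. A basophil, here, was any kept cell with at least 3 molecules (unique molecular identifiers, UMIs) of Mcpt8, Cpa3, Fcer1a, Ms4a2 and Cd200r3 together, with at least 2 of these 5 genes detected. It could hold at most 2 UMIs of Clec4f and Vsig4, which mark Kupffer cells, and none of Cd3e, Cd79a and Siglech, which mark T cells, B cells and plasmacytoid dendritic cells. Kept cells had 200 to 4000 genes and at most 25% mitochondrial UMIs. The rule found 51 cells in the first library and 14 in the second.

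Both libraries were made with the BD Rhapsody system, which captures cells in microwells with barcoded beads and counts their whole transcriptomes, in a study of the chitinase-like protein Chi3l1 (gene Chil1) in fatty liver disease. The first library is called the WT library here. Its label carries the title MCD, a header line of its table names APAP0h, and the study describes wild-type (WT) C57BL/6J mice on a normal chow diet (NCD), so its diet was not settled. The second, the HFHC pool, holds cells of WT and Chil1-/- mice on a high-fat, high-cholesterol (HFHC) diet together, and no genotype per cell was used. Age and number of mice are not given for either library. There is 1 library per condition, so diet, genotype, capture and sequencing cannot be told apart, no test between libraries was possible, and every interval covers counting error only.

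Basophils are rare granulocytes of the blood. They develop in the bone marrow under the transcription factor GATA2 and the cytokine interleukin 3, carry the high-affinity receptor for immunoglobulin E (IgE), and store histamine and proteases in granules. When activated they release histamine, leukotrienes and cytokines, above all interleukin 4, which acts on T cells, macrophages and stromal cells in allergic inflammation, in defence against helminths and in tissue repair.

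The start regions of the 5 genes that define the cells are printed here because every member was chosen by their transcripts, and because Gata2, whose factor binds GATA sequences, was itself among the genes highest in these cells. Each run holds 250 bases before and 50 bases after the transcription start, 5′ to 3′ on the gene's own strand, from the RefSeq promoter table of the mouse build GRCm38.p6. Mcpt8 lies at chr14:56085148-56085447 on the minus strand, Cpa3 at chr3:20242132-20242431 on the minus strand and Fcer1a at chr1:173227180-173227479 on the minus strand. Ms4a2 lies at chr19:11623670-11623969 on the minus strand and Cd200r3 at chr16:44943428-44943727 on the plus strand. Capitals mark AGATAA, the GATA sequence searched, and TTGCNNAA, a C/EBP sequence, with N for any base, each on both strands, so that TTATCT is AGATAA read on the other strand.
Mcpt8: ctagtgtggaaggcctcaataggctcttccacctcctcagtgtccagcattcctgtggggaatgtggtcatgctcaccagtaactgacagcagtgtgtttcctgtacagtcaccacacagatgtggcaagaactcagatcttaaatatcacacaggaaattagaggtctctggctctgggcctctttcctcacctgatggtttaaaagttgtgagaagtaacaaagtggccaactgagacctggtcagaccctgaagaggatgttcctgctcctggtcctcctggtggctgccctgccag
Cpa3: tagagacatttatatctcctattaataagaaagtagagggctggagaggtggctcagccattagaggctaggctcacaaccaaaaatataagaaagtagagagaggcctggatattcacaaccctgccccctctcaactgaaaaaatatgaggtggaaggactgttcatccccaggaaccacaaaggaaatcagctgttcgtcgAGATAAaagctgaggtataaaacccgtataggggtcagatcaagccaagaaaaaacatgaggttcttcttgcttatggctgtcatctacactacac
Fcer1a: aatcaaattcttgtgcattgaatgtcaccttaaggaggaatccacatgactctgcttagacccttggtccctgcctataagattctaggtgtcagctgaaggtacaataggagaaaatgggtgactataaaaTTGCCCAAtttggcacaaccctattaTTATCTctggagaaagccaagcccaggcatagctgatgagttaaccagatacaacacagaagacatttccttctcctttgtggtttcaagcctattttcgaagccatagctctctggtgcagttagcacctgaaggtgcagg
Ms4a2: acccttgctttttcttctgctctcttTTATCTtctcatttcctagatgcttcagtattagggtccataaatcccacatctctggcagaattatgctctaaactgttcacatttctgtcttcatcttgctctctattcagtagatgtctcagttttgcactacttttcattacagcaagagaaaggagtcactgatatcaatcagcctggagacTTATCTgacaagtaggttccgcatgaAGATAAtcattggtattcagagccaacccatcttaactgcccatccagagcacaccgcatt
Cd200r3: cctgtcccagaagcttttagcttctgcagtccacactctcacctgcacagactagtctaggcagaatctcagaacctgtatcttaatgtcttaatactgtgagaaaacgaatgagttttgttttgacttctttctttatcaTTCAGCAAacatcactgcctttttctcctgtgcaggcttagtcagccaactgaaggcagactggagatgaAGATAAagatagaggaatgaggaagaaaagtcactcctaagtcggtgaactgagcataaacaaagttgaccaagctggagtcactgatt

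AGATAA was found 3 times in the Ms4a2 region, at positions -224, -37 and -11 from the start, and once each in those of Cpa3, Fcer1a and Cd200r3. TTGCNNAA was found once each in the Fcer1a and Cd200r3 regions, none of these letters occurred in the Mcpt8 region, and no region held TTCNNNGAA, a STAT sequence searched in the same way. Of all 32851 promoters of this length in the table, 11.2% hold AGATAA, 10.8% TTGCNNAA and 8.30% TTCNNNGAA. The 20 genes that stood highest in basophils over other cell types, named below, matched 16 promoters, of which 6 held AGATAA (Ms4a2, Cpa3, Cd200r3, Fcer1a, Il1rl1 and Slc18a2), 6 held TTGCNNAA (Cd200r3, Fcer1a, Il1rl1, Csrp3, Il6 and Tbc1d4) and 0 held TTCNNNGAA. Ms4a2, Cpa3, Cd200r3 and Fcer1a are genes of the rule, which were bound to be among the 20. Outside the rule, AGATAA was held by Il1rl1 and Slc18a2 alone, and TTGCNNAA by Il1rl1, Csrp3, Il6 and Tbc1d4. These counts were not tested against the share of all promoters. A match is a description of letters and not of binding.

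The libraries held 53720863 UMIs in 30734 cells and 71981673 UMIs in 21601 cells, of which 23346 and 19625 cells were kept, with medians of 1322.5 and 1622 UMIs. They shared 756 cell labels, 2.46% of the labels of the WT library and 3.5% of those of the pool. In each library 1 basophil carried a label that also occurs in the other, but no label was a basophil in both. A doublet caller (Scrublet) marked 1910 kept cells (8.18%) of the WT library and 378 (1.93%) of the pool, among them 2 basophils of the WT library and none of the pool.

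Basophils made up 0.218% of kept cells in the WT library (51 of 23346, exact binomial 95% interval 0.163 to 0.287%) and 0.0713% in the pool (14 of 19625, 0.039 to 0.120%). Counted among basophils and 5 other leukocyte types found by their own marker UMIs (neutrophils, monocytes, B cells, T cells, and NK and ILC1 cells), they were 0.705% of 7235 cells and 0.306% of 4577 cells. A library is 1 preparation, and the recovery of cells was not measured. The order of the libraries depended on the cells counted against, because the mixture of other cells differed. Per 100 T cells there were 2.28 basophils in the WT library and 0.583 in the pool, but per 100 neutrophils 1.67 and 4.35, and per 100 Kupffer cells 2.07 and 4.23. Monocytes (18.0 and 2.66), NK and ILC1 cells (21.25 and 3.21) and B cells (3.74 and 1.60) gave the order of T cells. Sinusoidal endothelial cells gave 2.19 and 2.32.

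Basophils had a median of 1684 UMIs (526 to 4049) and 970 genes in the WT library and were deeper in the pool, with 3500.5 UMIs (1299 to 8692) and 1491.5 genes. Their mitochondrial share was 3.88% and 4.21%. Together they gave 92211 UMIs in the WT library and 54936 in the pool. At an equal depth of 1000 UMIs per cell, which 43 and 14 cells reached, the median number of genes was 661 and 637.5.

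The 5 genes of the rule were read as follows, as a description of the choice. Ms4a2, the beta chain of the IgE receptor, had 193 UMIs in 48 of the 51 cells and 80 UMIs in 13 of the 14. Cpa3, carboxypeptidase A3 of mast cell and basophil granules, had 158 UMIs in 35 cells and 64 in 12, and Cd200r3, an activating receptor that pairs with DAP12, had 134 in 43 and 30 in 10. Fcer1a, the IgE-binding alpha chain, had 75 UMIs in 30 cells and 27 in 10, and Mcpt8, the basophil serine protease, 76 in 28 and 24 in 7. Most members thus carried several of the genes: 2, 3, 4 and all 5 were found in 9, 12, 20 and 10 cells of the WT library and in 1, 5, 5 and 3 of the pool. Just inside the threshold, 2 cells of the WT library and none of the pool had 3 UMIs of the 5 genes, and 2 and 1 cells had 4. Just outside it, 7 and 0 cells had 2 UMIs, 20 and 10 had 1, and 2 and 1 had at least 3 UMIs of a single gene.

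The label was checked against basophil markers outside the rule. Of a list of 16 such markers, 15 had a UMI in each library, and their UMIs per cell ranged from 6 to 120 (median 37) in the WT library and from 26 to 183 (median 74) in the pool. Ifitm1, an interferon-induced membrane protein of basophils, was found in 49 of 51 and 14 of 14 cells, Gata2 in 46 and 14, and Hdc, the enzyme that makes histamine, in 46 and 11. Cyp11a1, a steroid-making enzyme also found in basophils and mast cells, was found in 41 and 12. Gata2, Hdc and Cyp11a1 were also present in the mast cell-like cell described below, which held 18 UMIs of the list. They thus do not set basophils apart from mast cells. Il3ra, the alpha chain of the interleukin 3 receptor, had no UMI in the WT library and 6 in 4 cells of the pool.

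Markers of several other cell types were scarce. Of 10 mast cell markers 7 had a UMI in the WT library, but 255 of their 257 UMIs lay in 1 cell, and the pool had 8 UMIs of 1 marker, Kit. Of 8 eosinophil markers 3 and 2 were found (14 and 9 UMIs), with Prg2, the eosinophil major basic protein, at 0. Of 9 neutrophil markers 6 and 3 were found, with 0 to 38 UMIs per cell in the WT library and 0 to 14 in the pool. Of these 236 and 53 UMIs, 150 and 51 were Cxcr2, which basophils also express, and Ly6g was at 0. Monocyte markers had 82 UMIs in 31 of the 51 cells and 18 in 6 of the 14. Of these, 61 and 18 were Ccr2, a chemokine receptor of monocytes, in 28 and 6 cells, at -1.53 and -2.83 relative to monocytes on the log2 scale. Hepatocyte markers had 144 UMIs in 27 of the 51 cells and 99 in 9 of the 14, and endothelial markers 56 in 27 and 16 in 8. NK cell and ILC1 markers had 3 and 0 UMIs, T cell markers 6 and 2, and Kupffer cell markers 28 and 7. The rule itself limits the Kupffer, T and B cell markers a member can hold, so that low counts of these are no check of the label.

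In all, 13 cells carried at least 10 UMIs of mast cell, B cell, monocyte, endothelial or hepatocyte markers or of S100a8 and S100a9 together, 10 in the WT library and 3 in the pool. Hepatocyte markers, such as Alb for albumin, passed this level in 7 and 2 cells, S100a8 and S100a9 of neutrophils in 2 and 0, and endothelial and monocyte markers in 1 cell each of the WT library. B cell markers passed it in 1 cell of the pool, which had 42 UMIs of Ighm, 157 of Igkc and 8 of Jchain, genes of immunoglobulin, beside 18 of Ccl3 and 4 of the genes of the rule. The whole neutrophil list, with Cxcr2, reached 10 UMIs in 5 and 2 cells, and the markers of group 2 innate lymphoid cells, with Il1rl1 and Il7r, in 0 and 2. These lists were not used to set cells aside. Some ratios between libraries moved without the 13 cells, the 2 deepest cells of the pool, or both, which left 41 and 9 cells. Such values are given below, though not for every gene and choice. Levels of the pool are given over all 14 cells, with the level over the 12 other cells where the 2 deepest weighed most.

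A single cell of the WT library had the transcripts of a mast cell, the tissue-resident relative of basophils. It held 146 UMIs of Tpsb2 (tryptase), 52 of Cma1 (chymase), 50 of Mcpt4 and 53 of Cpa3 among 1398 UMIs, with none of Ms4a2, Mcpt8, Cd200r3 or Ccl3. It met the rule through Cpa3 and 1 UMI of Fcer1a. Among its other UMIs were 5 of Gata2, 10 of Hdc, 6 of Il1rl1 and 1 of Cyp11a1. The other 50 cells of that library had no UMI of Tpsb2, Cma1 or Mcpt4 and 105 of Cpa3.

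The 20 genes highest in basophils were taken by the ratio of CPM (the summed UMIs of a gene scaled to the total of the cells) to the mean of 7 other cell types of the same library, with 1 UMI added and the lower of both libraries taken. Where a type had no UMI of a gene, the added UMI sets part of the ratio. They include the 5 genes of the rule, which were bound to be there. Of the other 15, Cyp11a1 led, with log2 ratios of 9.95 in the WT library and 10.58 in the pool, followed by Gata2 with 7.45 and 8.96. Among them were also Cdh1 (E-cadherin, 7.39 and 7.96), Il1rl1 (the receptor of interleukin 33, 7.29 and 8.08), Slc18a2 (the transporter that loads histamine into granules, 7.29 and 8.37) and Itga2b (an integrin of platelets, 7.24 and 7.89). Il6 (interleukin 6, 7.60 and 6.42), Alox15 (a lipoxygenase, 6.70 and 5.90) and Hgf (hepatocyte growth factor, 4.99 and 5.34) were of the same set. Its other members were Csrp3, Mboat1, Klf5, E2f8, Rab44 and Tbc1d4, at 4.97 to 7.94. The 7 types hold no hepatocytes, mast cells or group 2 innate lymphoid cells. Against all other kept cells, Cdh1 was lower, at 5.47 and 6.32, as was Csrp3, at 6.77 and 5.34. Others, such as Gata2 at 7.64 and 9.71, were higher. In the heat map of these genes, no other type came near basophils for the first 6, whereas Rab44 was also seen in neutrophils and Hgf and Gata2 in sinusoidal endothelial cells.

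**Figure D1:**
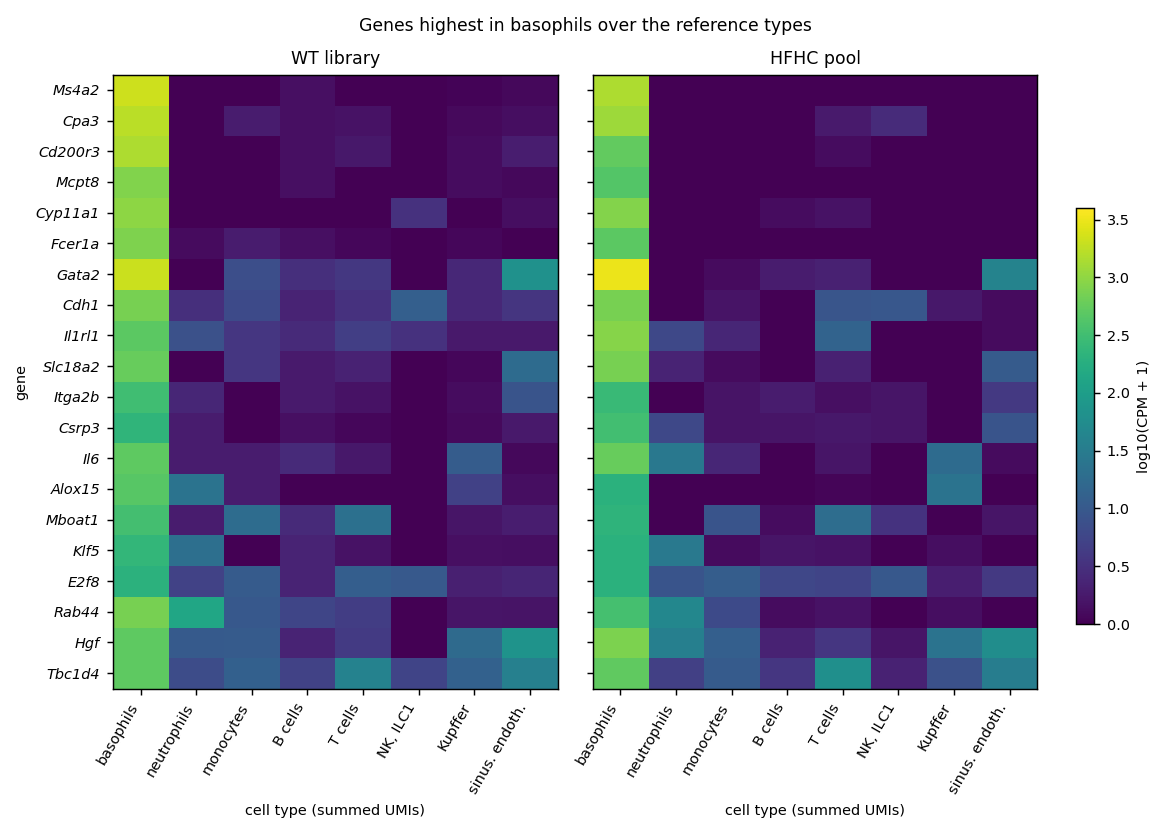
Level of the 20 genes that stood highest in basophils, as log10(CPM + 1) by colour, in basophils and 7 other cell types (columns) of the WT library (left) and the HFHC pool (right), over summed UMIs. The first column is bright for all 20 genes in both panels (Ms4a2 2093 and 1456 CPM), and the other columns are dark for the genes of the rule and Cyp11a1.

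Across all 914 genes with enough UMIs for this comparison, 9.3% were more than 2-fold above the highest of the 7 types in both libraries. Of the basophil markers outside the rule 9 of 12 were, as were 4 of 5 cytokines, 3 of 4 chemokines, 3 of 8 genes of IgE receptor signalling (1 of 6 without Fcer1a and Ms4a2, which the rule fixed), 3 of 7 cytokine receptors and 3 of 9 transcription factors. At the other end were 0 of 14 ribosomal protein genes, 0 of 7 genes of glycolysis and 0 of 3 of oxidative phosphorylation. The lists were chosen with the known roles of basophils in view, so that their counts describe the cells and test nothing.

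Of the IgE receptor, which lets bound antibody trigger the cell, the alpha and beta chains belong to the rule. Fcer1g, the shared signalling chain, was at 2689 CPM in the WT library (95% Poisson interval 2365 to 3046) and 1256 in the pool (977 to 1590), in 49 and 14 cells, and below Kupffer cells in both. Of 18 genes of the pathway, 17 had a UMI in each library. Lat2, an adaptor in the signalling of the receptor, was 835 and 1056 CPM. It lay 2.02 and 2.80 above NK and ILC1 cells, the next highest type, on the log2 scale. The kinases Lyn (8 and 7 UMIs) and Syk (19 and 9) and the adaptors Lat (7 and 4) and Gab2 (23 and 9) had few UMIs. Vav1 had none in the WT library, which allows up to 32.5 CPM, and 6 in the pool.

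Granule proteases were uneven from cell to cell. Mcpt8 had no UMI in 23 of the 51 cells and reached 19 in 1 of them, and Prss34, a tryptase of basophils, had 43 UMIs in 8 cells, all of which also held Mcpt8. The top cell held 19 of these 43, and the top 3 cells 83.7%. In the pool Prss34 had no UMI, which allows up to 54.6 CPM against 466 CPM in the WT library (338 to 628). With the WT value taken as it stands, this is at least 8.54-fold lower with 3 UMIs in place of 0. A gene held by 8 of 51 cells could also be missed in the fewer cells of the pool. Srgn, the proteoglycan serglycin that packs granules, was found in 48 and 13 cells at 3438 and 3750 CPM. Gzmb, granzyme B, had 7 UMIs in 4 cells of the WT library and 110 in 4 cells of the pool, 81 of them in 1 cell, and was 344 CPM in place of 2002 CPM without the 2 deepest cells.

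Genes for histamine and lipid mediators came in 10 of 12 and 8 of 12. Hdc was 3145 CPM (2793 to 3529) in the WT library and 2548 (2144 to 3007) in the pool, above neutrophils, the next type, by 1.04 and 0.72 on the log2 scale. It varied widely between cells, from none to 47 UMIs in the WT library and to 65 in the pool, where that 1 cell held 46.4% of the UMIs. Slc18a2 was 575 and 728 CPM, in 25 and 11 cells. Alox5 and Alox5ap, the enzyme and its helper that open leukotriene synthesis, were 694 and 328 CPM and 2483 and 1329 CPM. Alox5 stood 0.98 and 0.65 above neutrophils and Alox5ap at 0.08 and -0.16 relative to them. The leukotriene C4 synthase Ltc4s and the prostaglandin D synthase Hpgds had no UMI in any of the 65 cells, and Ptgs2, cyclooxygenase 2, had 11 UMIs in 3 cells and 19 in 5.

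**Figure D2:**
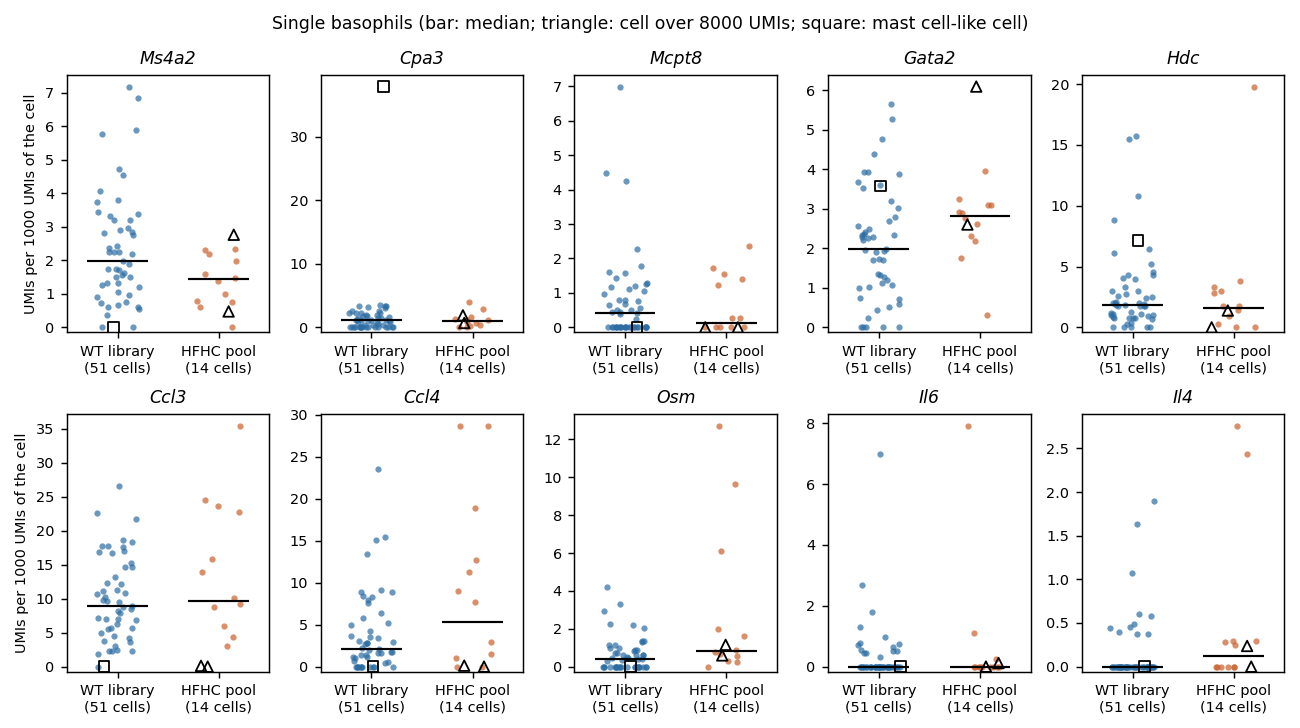
UMIs per 1000 UMIs of the cell (vertical axis) for 10 genes in each of the 51 basophils of the WT library (blue) and the 14 of the HFHC pool (orange), with the median as a bar. Ccl3 and Gata2 were spread over nearly all cells, with 49 and 46 of 51 in the WT library, whereas Il6, Il4 and Mcpt8 had most cells at or near 0, and the 2 cells over 8000 UMIs (triangles) had almost no Ccl3 or Ccl4.

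Chemokine transcripts were found in nearly every cell. Ccl3 and Ccl4, which draw in monocytes, T cells and NK cells, were found in 49 and 39 of the 51 cells and in 13 and 11 of the 14. Ccl3 was 9880 CPM (9248 to 10543) in the WT library and 10521 (9681 to 11415) in the pool. By cell its median was 8977 CPM in the WT library, with a highest cell at 26522, and 9701 in the pool, with a highest cell at 35433. Every basophil with a UMI of Ccl4 had Ccl3 as well, in all 39 and all 11 cells. Ccl4 was 4132 CPM (3727 to 4568) and 7117 CPM (6429 to 7859). Without the 2 deepest pool cells, which had almost none of either, Ccl3 was 15267 CPM and Ccl4 10319 CPM in the pool. The other types were far lower in the WT library, where NK and ILC1 cells came next, by 5.0 for Ccl3 and 3.31 for Ccl4 on the log2 scale, and closer in the pool (2.70 against neutrophils and 2.73 against NK and ILC1 cells).

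Ccl6 and Ccl9, CCR1 ligands of myeloid cells, were found in 46 and 47 of the 51 cells and in 11 and 13 of the 14. Ccl6 was 6008 and 4496 CPM and stood 0.80 and 1.21 above neutrophils on the log2 scale, and Ccl9 was 5303 and 2639 CPM, 2.63 and 1.98 above monocytes. Other chemokines were nearly missing: Ccl5 had 5 and 1 UMIs, Ccl2 2 and 0, Cxcl2 1 and 0, and Cxcl10 none.

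Among cytokines, Csf1, the growth factor of macrophages, was the most widely found, in 40 of 51 and 14 of 14 cells, at 2483 and 2203 CPM. It stood 1.74 and 0.62 above neutrophils, the next type, on the log2 scale. Osm, oncostatin M, a cytokine of the interleukin 6 family that acts on hepatocytes and stromal cells, was 727 CPM (563 to 923) in 29 cells of the WT library and 2457 CPM (2060 to 2909) in 13 cells of the pool. In the pool 3 of the 14 cells gave 72.6% of its UMIs, and in the WT library 3 of the 51 cells gave 32.8%. These are unlike parts of the cells, so that the shares are not compared. Hgf, which drives hepatocyte growth, was 510 and 765 CPM in 27 and 11 cells, 2.88 and 3.75 above sinusoidal endothelial cells.

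Il4, the hallmark cytokine of basophils, was sparse: 15 UMIs in 11 cells of the WT library and 24 in 7 of the pool. Il6 had 47 UMIs in 15 cells and 32 in 4. In the WT library 3 of the 51 cells held 66.0% of them, and in the pool 3 of the 14 held 96.9%. Both genes were found together in 5 cells of the WT library and in 4 of the pool. Il13, Tnf, Csf2, Areg and Lif had no UMI in any of the 65 cells. Il1b had 24 UMIs in 6 cells and 1 in 1.

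Shares of cells were set against B cells, in which these genes are low, with every cell thinned to 1000 UMIs. Unthinned, the median depths of basophils and B cells were 1684 and 1412 UMIs in the WT library and 3500.5 and 2732.5 in the pool. Ccl3 was then found in 95.3% of 43 basophils of the WT library (exact binomial 95% interval 84.2 to 99.4%) and 92.9% of 14 of the pool (66.1 to 99.8%), against 0.466% of 1073 and 1.26% of 873 B cells. Ccl4 gave 72.1% and 71.4%, against 0.559% and 1.15% of B cells. Csf1 gave 74.4% and 92.9%, against 2.24% and 1.15%. Unthinned, these 3 genes were found in 49, 39 and 40 of 51 cells and in 13, 11 and 14 of 14 cells, and each share stood far above that of B cells.

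Osm was found in 48.8% of the thinned basophils of the WT library (33.3 to 64.5%) and 78.6% of those of the pool (49.2 to 95.3%), and Hgf in 15 of 43 and 7 of 14 cells. The Osm shares were lower in both libraries with cells thinned to 500 UMIs, as given under processing. For Il6 the shares were 23.3% (11.8 to 38.6%) and 7.14% (0.181 to 33.9%), but 9.80% and 14.3% with cells thinned to 500 UMIs and 29.4% and 28.6% without thinning, so that no order of the libraries is read from them. Il4 was found in 6 of 43 (5.30 to 27.9%) and 5 of 14 (12.8 to 64.9%) cells, and in 7.84% and 14.3% when thinned to 500 UMIs. It was found in 0 of 1073 and 0 of 873 B cells thinned to 1000 UMIs, which allows up to 0.280% and 0.344%. All 4 genes were below 1% in B cells. Il13 was found in 0 of 43 and 0 of 14 basophils, which allows shares of up to 6.98% and 21.4% of cells with a UMI.

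**Figure D3:**
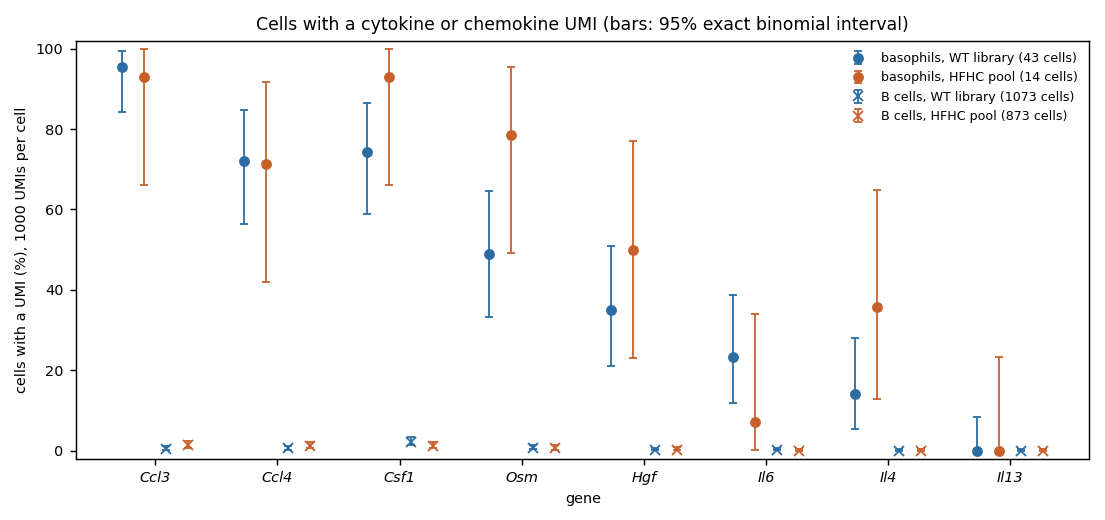
Percent of cells with a UMI of 8 cytokine and chemokine genes after thinning every cell to 1000 UMIs, for basophils (circles) and B cells (crosses) of the WT library (blue) and the HFHC pool (orange), with exact binomial 95% intervals. Basophils run from 95.3% for Ccl3 down to 0 for Il13 in the WT library, and B cells stay under 3% for every gene.

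Receptors for growth and alarm cytokines were broad. Csf2rb, the beta chain shared by the receptors of interleukin 3, interleukin 5 and GM-CSF, was 3774 and 2294 CPM in 49 and 14 cells, and Csf2rb2, a beta chain used by interleukin 3 alone, 1280 and 1038 CPM in 43 and 13. They stood 2.47 and 2.08 above neutrophils and 3.76 and 3.06 above monocytes on the log2 scale. Il1rl1 was 499 and 874 CPM and stood 6.19 and 6.08 above the next of the 7 types on the log2 scale. Mast cells and group 2 innate lymphoid cells are not among these types. The mast cell-like cell held 6 of the 46 Il1rl1 UMIs of the WT library. Il18rap and Il18r1, the chains of the interleukin 18 receptor, were 596 and 655 CPM and 412 and 328 CPM. Il18rap stood 0.80 and 0.91 above NK and ILC1 cells, and Il18r1 0.68 and 0.04. Il7r, the interleukin 7 receptor, was 878 CPM in 32 cells and 291 in 7, and Il4ra had no UMI in either library.

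Of receptors that guide migration, Cxcr2, best known on neutrophils, was in 48 of 51 cells at 1627 CPM and in 9 of 14 at 928 CPM. Relative to neutrophils its level was -1.44 and -1.52 on the log2 scale. Cxcr4, which holds cells in bone marrow, was 1518 CPM in 42 cells and 437 CPM in 9. C3ar1, a complement receptor, was 976 and 655 CPM and stood 1.37 and 1.08 above Kupffer cells. Ptgdr2, the prostaglandin D2 receptor CRTH2, had no UMI in any basophil, and Ccr3, the eotaxin receptor, had 10 and 5.

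Lilr4b, an immunoglobulin-like receptor of myeloid cells, was in 47 and 12 cells at 3102 and 3058 CPM, 2.34 and 1.08 above neutrophils. Cd63, a granule membrane protein that reaches the surface on degranulation, was 1215 and 1347 CPM, 3.38 and 2.95 above them. Tyrobp, which encodes DAP12, the partner of Cd200r3, was 2733 and 1529 CPM, at -0.95 and -1.50 relative to neutrophils.

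Transcription factors were led by Gata2, at 2039 CPM (1758 to 2352) and 3149 CPM (2697 to 3655), 4.97 and 6.33 above sinusoidal endothelial cells. Runx1 was 499 and 783 CPM and stood 1.72 and 2.34 above NK and ILC1 cells. Cebpa was 314 and 400 CPM. Gata1 had 5 and 2 UMIs, Mitf, the mast cell factor, had none, and Irf8, a factor of monocytes and dendritic cells, had 1 and 2. Ikzf2 was 293 and 710 CPM, in 19 and 7 cells. Without the 2 deepest pool cells, Gata2 was 2593 CPM in the pool, Runx1 503 and Ikzf2 397.

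Genes of antigen presentation on MHC class II were low, with Cd74 at 29 and 7 UMIs at -4.72 and -6.35 relative to the highest type on the log2 scale. Of glycolysis 14 and 13 of 16 genes had a UMI, with Aldoa at 1638 and 1110 CPM, and the glucose transporters had 41 and 15 UMIs, mostly of Slc2a3. Mki67 and Top2a, markers of dividing cells, had none. Chil1, the gene whose product the study is about, had no UMI in any of the 65 cells. This allows up to 32.5 CPM in the WT library and 54.6 CPM in the pool, whereas neutrophils of the WT library were at 597 CPM and those of the pool at 189. The pool holds cells of WT and Chil1-/- mice together, and no genotype per cell was used. Its Chil1 values, in basophils and in neutrophils, thus mix both genotypes and cannot be read as levels of WT cells.

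Basophils of both libraries were then compared by log2 ratio of CPM, pool over WT library, each with 1 UMI more, for the 934 genes that had 30 or more UMIs over both. Of these, 8.14% (76) were more than 2-fold higher in the pool and 10.7% (100) more than 2-fold lower, around a median of -0.07. With 1 library each, these counts describe the libraries and call no gene changed. Without the cells that carry markers of other types and the cells over 8000 UMIs, the counts were 48 and 46 of 590.

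Among genes with at least 100 UMIs, the highest ratios included 4 immediate early genes, which cells switch on quickly after a stimulus. They were Fos (2.72, 95% interval 2.30 to 3.20), Egr1 (2.62, 2.19 to 3.12), Jun (1.57) and Dusp1 (1.47). Dusp1 was at 2.06 without the cells of other types' markers and the deep cells. Fos had 53 UMIs in 19 of 51 cells and 211 in 13 of 14, and Egr1 51 in 20 and 190 in 12, in cells of unequal depth. With cells thinned to 1000 UMIs, Fos was found in 30.2% of 43 basophils (17.2 to 46.1%) and 78.6% of 14 (49.2 to 95.3%), and Egr1 in 32.6% (19.1 to 48.5%) and 64.3% (35.1 to 87.2%). Gm42418, which overlaps ribosomal RNA, stood at 2.07 and Ftl1, a ferritin chain, at 1.93. Osm was at 1.75 (1.32 to 2.20). Ptma was at 1.33 and Lmo4 at 1.29, with 109 and 80 of their 171 and 94 pool UMIs in the 2 deepest cells. Without these cells Ptma was at 0.42, and Lmo4 turned to -0.83.

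At the other end were Cd52 (-2.24, -3.24 to -1.52), a glycoprotein of the leukocyte surface, and Cxcr4 (-1.75, -2.49 to -1.17). Cxcr4 was in 42 of 51 and 9 of 14 cells, with 11 of the 24 pool UMIs in 1 cell. Glul, glutamine synthetase, was at -1.78, with 57 of its 91 WT UMIs in 1 cell, and at -0.36 without cells of other types' markers. S100a11 (-1.40), Cd200r3 (-1.38), Rsrp1 (-1.31), Rac2 (a GTPase of blood cells, -1.26), Sh3bgrl3 (-1.18), Plp2 (-1.17) and Ypel3 (-1.15) made up the rest. Without the cells of other types' markers and the deep cells, S100a11 was at -0.62, Rac2 at -0.73, Sh3bgrl3 at -0.69, Plp2 at -0.74 and Rsrp1 at -0.82, all within 2-fold. Ypel3 was at -2.04 without the cells of other types' markers and at -0.41 with cells thinned to 1000 UMIs. Cd200r3 is a gene of the rule, so the choice of cells can weigh on its ratio. It had no UMI in the 2 deepest pool cells, without which it was at -0.84, and was at -0.83 with cells thinned to 1000 UMIs. It was at -1.79 without the cells of other types' markers and at -1.13 without both kinds of cell.

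The same ratio was taken in the other cell types, which share the libraries. Immediate early and heat shock genes had a median of 1.47 in basophils, with 10 of 15 more than 2-fold higher and none lower. Of all 934 genes, 8.14% were higher and 10.7% lower. In the 7 other types the medians were 1.15 to 2.16, over 18 to 21 genes of the same list. With a minimum of 100 UMIs, which left 10 genes, the basophil median was 0.93. Ribosomal protein genes had a median of 0.59, with 3 of 15 more than 2-fold higher, and of 0.26 without the 2 deep cells, beside medians of 0.13 to 0.82 elsewhere, while over all genes the medians of the other types lay between -0.07 and 0.12. Gm42418 was between 2.26 and 2.52 and Ftl1 between 1.08 and 2.23 in those types. The list median of immediate early and heat shock genes, Gm42418 and Ftl1 were thus above 0 in basophils and in the 7 other types, and the cause was not tested.

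Ccl3 did not follow this pattern. Its ratio was 0.09 in basophils (-0.06 to 0.24), which were at 9880 and 10521 CPM, and 1.14 to 3.69 in the 7 other types, highest in T cells (3.69, 3.39 to 4.05) and neutrophils (3.05, 2.92 to 3.19). Ccl4 was at 0.78 (0.58 to 0.99) in basophils and at 0.92 to 4.12 elsewhere. Without the 2 pool cells over 8000 UMIs the basophil values were 0.63 (0.47 to 0.78) for Ccl3 and 1.32 (1.11 to 1.53) for Ccl4. The Ccl3 ratio then still lay below the lower bound in every other type, from 0.95 in Kupffer cells upward, by counting error alone.

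Osm had like ratios in basophils (1.75), neutrophils (1.55) and monocytes (1.64). Il4 was at 1.39 (0.44 to 2.46) in basophils, from 15 and 24 UMIs, with 8 and 10 of the 24 in 2 cells of the pool. In T cells, the other type with Il4, it was at -2.12 (-2.48 to -1.78). The basophil Cxcr4 and Cd52 ratios were below those of all 7 other types, which ran from -0.25 to 0.67 for Cxcr4 and from -0.64 to 0.12 for Cd52. Without the cells of other types' markers and the deep cells, Cxcr4 was at -1.45 (-2.32 to -0.80) and Cd52 at -1.33 (-2.44 to -0.53).

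**Figure D4:**
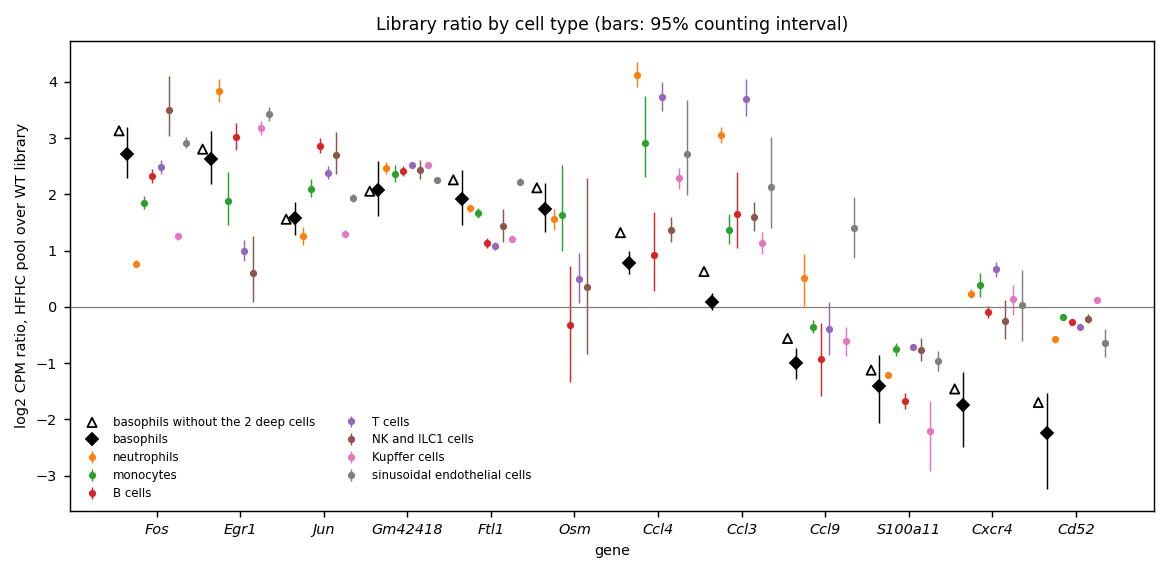
Log2 ratio of CPM, HFHC pool over WT library (vertical axis), of 12 genes in basophils (diamonds), in basophils without the 2 cells over 8000 UMIs (open triangles) and in 7 other cell types (coloured points), with 95% counting intervals. Fos, Egr1 and Gm42418 lie above 0 in all types, Ccl3 lies near 0 in basophils (0.09) and above 1 in the others, and Cxcr4 and Cd52 are lower in basophils than in any other type.

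By role, the genes of the rule had a median ratio of -0.69, with 0 of 5 more than 2-fold higher and 1 lower. These genes chose the cells by a fixed minimum of UMIs, in libraries of unequal depth, so that this value describes the choice. With cells thinned to 1000 UMIs it was -0.30. Genes of IgE receptor signalling were at -0.51 (0 of 8 higher, 2 lower), and without Fcer1a and Ms4a2 of the rule at -0.09 (0 of 6 higher, 2 lower). Medians and counts were, for mediator genes, -0.24 (1 of 6 higher, 1 lower), for chemokines -0.16 (none of 4 either way) and for receptors of migration -0.84 (0 of 6 higher, 1 lower). Over all genes 8.14% were higher and 10.7% lower, and with so few genes a list these counts do not set the lists apart. Without the 2 deep cells, the mediator genes were at 0.21 and the chemokines at 0.38, so that both medians changed sign, and the receptors of migration were at -0.30. Single genes moved too: Gata2 went from 0.63 to 0.35 (-0.02 to 0.71) and, with all cells thinned to 1000 UMIs, to -0.26. Csf1 went from -0.17 to 0.32, Hdc from -0.30 to 0.11 (-0.20 to 0.41), Cyp11a1 from -0.18 to 0.30, Hgf from 0.59 to 1.02 (0.37 to 1.66) and Il1rl1 from 0.81 to 1.22 (0.59 to 1.85). Cpa3 was at -0.54 with the mast cell-like cell and at 0.02 (-0.46 to 0.47) without it.

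The 2 deep cells of the pool held 8451 and 8692 UMIs and 3126 and 3203 genes, against at most 3996 UMIs in the other 12, and gave 31.2% of all basophil UMIs of the pool. They were found after the depths were seen, and were not called doublets. Both met the rule mainly through Cpa3 (16 and 6 UMIs) and Ms4a2 (4 and 24), and held Gata2 (22 and 53), with no UMI of Mcpt8 or Cd200r3. Markers of neutrophils, eosinophils, monocytes, B cells and NK cells were at 0 in both, and of mast cell markers Kit alone was found, with 5 UMIs in 1 of them.

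Against the other 12 basophils they stood apart in a set of genes. Sox4, a transcription factor of immature cells, had 37 and 20 UMIs in them and none in the 12. Lmo4, a LIM-only transcriptional regulator, had 41 and 39, against 14 UMIs in 6 of the 12, and Gzmb 81 and 16, against 13 in 2. Ptma, prothymosin alpha, had 57 and 52 (62 in the 12), Plac8 25 and 34 (37) and Ikzf2 12 and 12 (15). Stmn1, a microtubule protein of growing cells, had 2 and 3 UMIs and Ctsg, the granule protease cathepsin G, 0 and 6, with none of either in the 12. Ribosomal protein genes summed to 23625 CPM against 13839 CPM. Cell cycle genes had 11 UMIs against 2, with Mki67 and Top2a at 0 in all 14.

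Several genes common in the other basophils were almost missing from the deep cells. Ccl3 had 0 and 1 UMI in them and 577 in the 12, all of which had it, with a median of 32.5. Ccl4 had 0 and 1 (390 in the 12), Ccl6 none (247), Lilr4b none (168), Cxcr2 none (51) and Cd7 none (56). Chemokines summed to 700 CPM against 35721 CPM, and the basophil markers outside the rule to 10500 CPM against 25640 CPM. Cyp11a1 had 0 and 2 UMIs (45 in the 12) and Csf1 1 and 3 (117 in the 12). Hdc was uneven, with 0 and 12 UMIs, against a median of 5 in the 12, where 1 cell held 65 of the 128. Other common genes were present: Ifitm1 had 15 and 17 UMIs (200 in the 12), Csf2rb 6 and 9 (111) and Jun 62 and 25 (185). By the rule of choice they are members, and no name was given to them.

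**Figure D5:**
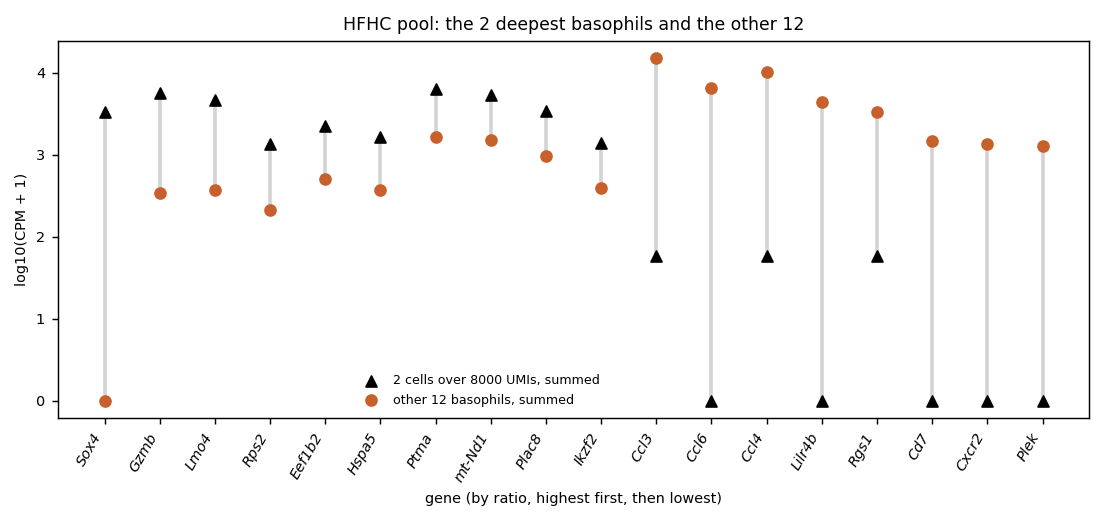
Level, as log10(CPM + 1), of 18 genes, 10 of the highest and 8 of the lowest ratio, in the 2 pool basophils over 8000 UMIs (black triangles, summed) and the other 12 (orange circles, summed), from 285 genes that had 30 or more UMIs, without genes that 1 of the 12 cells held over 80% of. Sox4 has 57 UMIs in the 2 cells and 0 in the 12, and Ccl6, Lilr4b, Cd7, Cxcr2 and Plek have 0 in the 2 cells.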

How the data were processed

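Non-parenchymal cells were isolated by perfusion, collagenase digestion and density gradient, and made into 2 BD Rhapsody whole-transcriptome libraries. Per the file headers, the deposited counts (UMIs per gene and cell, corrected for recursive substitution errors) come from the BD Rhapsody WTA Analysis Pipeline 1.10.1 with GRCm38 and GENCODE vM19. The authors' upstream cell calling was kept as deposited.

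Cells with 200 to 4000 genes and at most 25% mitochondrial UMIs (13 genes) were kept, which left 42971. Strict limits left 23312 cells of the WT library, the number the study retained for its NCD livers, and 19599 of the pool, more than the study retained for its HFHC livers. The 7 other cell types were gated by UMIs of their own marker genes, and cells that met more than 1 gate were left out. UMIs were summed per library and type and divided by the total (CPM). Intervals are 95% exact Poisson for CPM, exact binomial (Clopper-Pearson) for shares and conditional binomial for ratios. They cover counting error only. A count of 0 allows 3 UMIs. Ratios between libraries were taken for genes with at least 30 UMIs in both together, and named genes were the 20 highest over the mean of 7 types (at least 30 UMIs, and 5 in each library) and the 10 highest and 10 lowest between libraries (at least 100 UMIs, and 10 in each). Of these, 1 is not reported here. Other genes came from lists by role. Members and lists were chosen with earlier results of these data known. With 1 library per condition no differential test was run. Doublets were called by Scrublet (scanpy 1.11.5) and kept. Python 3.11.15, numpy 2.4.6, scipy 1.17.1 and pandas 2.3.3 were used, and the ratio script was tested on simulated data. Alternatives were another scaling, UMI minimums, thinning and leaving out cells with other types' markers or over 8000 UMIs, the last chosen after seeing the data.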

Additional observations from a re-analysis of the deposited data

Results flagged for a closer look

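In the WT library, 9 cells met the minimum of basophil marker UMIs and were left out by another part of the rule, so that they enter no comparison above. They are given here because 8 of the 9 carried Ccl3, with 5 to 57 UMIs. Clec4f and Vsig4 removed 4 cells, with 9 to 37 UMIs of Clec4f. Cd3e, Cd79a or Siglech removed 6, of which 2 failed on both counts, and 1 further cell failed on its mitochondrial share (27.5%) alone. Of the 6, 3 were left out by 1 UMI alone, of Siglech, Cd79a or Cd3e, and held at most 1 UMI of each of the Kupffer cell, B cell and hepatocyte lists, with 5 of the T cell list in the cell with Cd3e. The doublet caller marked 2 of the 9, both with Clec4f. A single cell had 37 UMIs of Clec4f and none of Ccl3, Gata2 or Hdc. The pool left out 2 such cells, each by 1 UMI of Cd79a or Cd3e, with 9 and 12 UMIs of Ccl3.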

How the results depend on the processing

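No paired analysis was possible because each condition is a single library, so no replicate could be left out either. The share of basophils was moved by the choice of leukocytes as denominator, to 0.705% and 0.306%. Without cells over 8000 UMIs, the median log2 ratios between libraries were -0.12 for IgE receptor signalling, 0.21 for mediator genes and 0.38 for chemokines. Receptors of migration were at -0.30, immediate early and heat shock genes at 1.23 and ribosomal protein genes at 0.26. In this section, immediate early genes stand for the whole list with heat shock genes. Without cells over 8000 UMIs and those with other types' markers, 48 genes were over 2-fold higher and 46 lower of 590. The medians were then -0.36 for the genes of the rule, 0.22 for mediators, 0.35 for chemokines and -0.16 for migration receptors. Immediate early genes were at 1.36 and ribosomal genes at 0.23. Leaving out the cells with other types' markers alone put chemokines at -0.31. With every cell thinned to 1000 UMIs, 19 genes were higher and 35 lower of 320, with medians of -0.30 for the genes of the rule, -0.30 for IgE signalling, 0.11 for mediators, 0.21 for chemokines, 0.91 for immediate early and 0.20 for ribosomal genes. A minimum of 100 UMIs left 14 higher and 21 lower of 220, with immediate early genes at 0.93 and ribosomal genes at 0.42. The mean of each cell's CPM gave -0.033 for mediators, -0.0067 for chemokines, 1.58 for immediate early and 0.36 for ribosomal genes. Scaling by the median of gene ratios gave 85 higher and 84 lower. Thinned to 500 UMIs, the shares of cells were 9.80% for Il6, 19.6% for Osm and 49.0% for Csf1 in the WT library and 42.9% for Osm in the pool, and without thinning 52.9% for Hgf in the WT library and 100% for Csf1 and 78.6% for Hgf in the pool. Of the single genes named, Lmo4 turned, to -0.83 without the deep cells and -0.97 without both kinds, and Gata2 to -0.26 with thinned cells. Ratios near 0 changed sign for Csf1 (to 0.32 without the deep cells), Hdc (0.11), Cyp11a1 (0.30), Cpa3 (0.06 without other types' markers) and Ccl3 (-0.05 without them). Depth limits what 65 cells can show: a gene with no UMI may still be at 32.5 CPM in the WT library and 54.6 CPM in the pool, and the cause of the movements was not tested.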

Other observations

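Other gene groups in basophils had little or no part in the comparisons above. Genes of oxidative phosphorylation summed to 2614 CPM in the WT library and 2621 CPM in the pool, with a UMI for 19 and 21 of 21 genes. BCL2 family and apoptosis genes summed to 1388 and 1438 CPM, led by Mcl1, a survival factor of granulocytes, at 499 and 400 CPM. Interferon-stimulated genes were low, with 59 and 9 UMIs over 12 genes. Glucocorticoid-responsive genes had 216 and 78 UMIs, of which Tsc22d3, a glucocorticoid-induced leucine zipper, had 44 and 4. Of 8 markers of group 2 innate lymphoid cells, which share type 2 cytokines with basophils, 4 and 5 had a UMI, with 135 and 70 UMIs. Il1rl1 gave 46 and 48 of these and Il7r 81 and 16, with Gata3, Il5 and Areg at 0. Platelet and erythroid markers had 30 and 15 UMIs, 29 and 15 of them Itga2b.

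In the pool, 2 cells of ordinary depth (3284 and 3625 UMIs) held a large part of several cytokine transcripts. They had 26 and 4 of the 32 UMIs of Il6, 8 and 10 of the 24 of Il4, 20 and 35 of the 135 of Osm, and 62 and 104 of the 391 of Ccl4. The first also held 65 of the 140 UMIs of Hdc. They were picked out after these values were seen.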
